A study of Homo sapiens with 2 samples.

Results

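Cycling mesenchymal cells are the collagen-expressing cells of a colon organoid culture that also carried transcripts of dividing cells. They were chosen from the measured UMIs (unique molecular identifiers, 1 per captured RNA molecule), with u standing for the UMIs of a gene per 10000 UMIs of a barcode. A member had at least 10000 UMIs, at most 20% mitochondrial UMIs, MALAT1 below 300 u and EPCAM below 1 u. Its COL1A1, COL1A2 and COL3A1 summed to at least 5 u, and its TOP2A, MKI67, CENPF, UBE2C, CDK1 and BIRC5 to at least 2 u. The rule found 104 of 4898 barcodes, 73 in CNT and 31 in 3CK. The mesenchymal cells with cycle genes below 2 u, 193 in CNT and 68 in 3CK, served as the non-cycling comparison.

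The source of the organoids, embedded in Matrigel, was 1383D6, an established line of human iPS cells (induced pluripotent stem cells). The CNT culture received no cytokines, and the 3CK culture was kept for 8 days with IL-1β, TNF-α and IFN-γ. Per the labels, both were made with Activin A, FGF2, EGF, forskolin, the MEK inhibitor PD98059 and the DNA methyltransferase inhibitor 5-aza-2'-deoxycytidine, among other agents. The stated aim was to model ulcerative colitis, an inflammatory disease of the colon. Each group was 1 library of 1 culture of 1 line, loaded with about 8300 cells, so no difference below has a replicate check and no test was possible. All intervals are 95% intervals of the counting error alone, and each comparison of 3CK with CNT compares these 2 libraries.

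Mesenchymal cells of the gut build the collagen matrix under the epithelium and send it growth signals. A dividing cell first copies its DNA (S phase), with replication enzymes, nucleotide enzymes and histones made together, and then passes through G2 and mitosis, with cyclin B, mitotic kinases and spindle proteins made together. In inflamed gut, stromal cells are also known as a source of chemokines, which attract leukocytes, and of IL-6.

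The libraries held 3257 barcodes and 105314879 UMIs in CNT and 1641 barcodes and 94887438 UMIs in 3CK, and they shared 0 barcodes. Of 1519 CNT and 1037 3CK barcodes with at least 10000 UMIs, 1315 and 854 stayed after the mitochondrial and MALAT1 limits, 307 and 161 after the EPCAM limit, and 266 and 99 after the collagen limit. Summed over members the CNT library gave 4238556 and the 3CK library 2879162 UMIs, and summed over non-cycling cells 13111634 and 6110989. Members had a median of 52560 UMIs in CNT (range 10590 to 207565) and 86271 in 3CK (range 23309 to 209802). The doublet caller marked 52 CNT and 16 3CK barcodes, with 0 of the 104 members among them.

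The label was checked against markers. The 5 genes that mark the cells, TOP2A, CENPF, CDK1, COL1A1 and COL3A1, were each above 10 CPM (UMIs per 1000000 UMIs of a group's summed cells) in the members of both libraries. They are genes of the rule, so this supports nothing. All of the 11 listed mesenchymal genes reached 10 CPM in both libraries, but COL1A2 among them is a gene of the rule. Of those outside the rule, DCN was at 822 CPM in CNT and 1117 in 3CK and VIM at 3601 and 5432. Keratins of simple epithelium were also high in the members, with KRT18 at 5639 and 5564 CPM and KRT8 at 3439 and 3188. The sample titles name colon epithelial cells, and the epithelial list summed to 9611 and 9354 CPM in members against 11745 and 23991 in the cells with EPCAM of at least 5 u. CDH1, the adhesion protein of epithelia, stood at 12.3 and 4.86 CPM.

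Markers of other cell types were low in the members for some lists and present for others. At least 10 CPM was reached by 7 of the 8 hepatic markers in CNT and 5 in 3CK. Of the 10 endothelial markers 4 and 3 reached it. Of the immune, neural, muscle, pluripotency and enteroendocrine lists, 2 or fewer did. Of the 8 immune markers, CD3E, LYZ and FCGR3A were at 0 in both libraries, and the list summed to 17.9 CPM in CNT and 104 in 3CK, where CD68 made up 93.1. Of the 10 endothelial markers, CLDN5 and VWF were at 0 in both, and most of the sum of 370 and 330 CPM was FLT1. The epithelial cells had sums of 114 and 151 CPM. The 10 neural and glial markers summed to 180 and 93.8 CPM, with TUBB3 at 156 and 89.6 and SOX10 and S100B at 0 in both. The skeletal muscle list summed to 1.89 and 4.17 CPM, with MYOD1, MYOG and MYF5 at 0 in both. The 8 pluripotency markers summed to 22.2 and 23.3 CPM, and the 8 enteroendocrine markers to 12.7 and 38.9. The 8 hepatic markers summed to 2122 CPM in CNT members and 408 in 3CK members, against 106527 and 39457 CPM in the epithelial cells. TTR, a secreted carrier protein, led them at 1228 and 199 CPM. A single CNT member carried apolipoproteins at 109 u, with the next highest at 8.70 u, beside collagens at 107 u and 207565 UMIs. It also held TTR at 81.2 u, with the next highest at 30.1 u. The 3CK over CNT ratios of APOC3 and APOC2 are given below with and without the highest cell of each group. The hepatic sum and TTR level of CNT members, and the place of APOA2 among the smallest ratios, are given only with that cell.

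Of the mesenchymal cells, 73 of 266 were cycling in CNT and 31 of 99 in 3CK. The shares were 27.4% (Clopper-Pearson 22.2 to 33.2%) and 31.3% (22.4 to 41.4%). The difference of 3.87 points had a Newcombe interval of -6.17 to 14.8 points, so a difference was not detectable at these cell numbers. After thinning every cell to 10000 UMIs the shares were 30.3% and 32.1%. Among epithelial cells the same cycle genes reached 2 u in 34 of 750 CNT cells, 4.53% (3.16 to 6.28%), and in 23 of 477 3CK cells, 4.82% (3.08 to 7.15%). Mesenchymal cells as a whole were 20.2% of the kept deep barcodes in CNT and 11.6% in 3CK, a difference of -8.64 points (-11.6 to -5.52). The fixed collagen limit left out 41 of 307 EPCAM-low barcodes in CNT and 62 of 161 in 3CK. The collagens of the rule were themselves lower in 3CK members, and the part of the limit in this difference was not tested.

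The cycle genes of the rule separated the cells unevenly. In CNT 85 of 266 mesenchymal cells had none of these UMIs, 94 were above 0 and below 1 u, only 14 lay from 1 to 2 u, 16 from 2 to 4 u, and 57 at 4 u or more. In 3CK the same ranges held 31, 33, 4, 8 and 23 cells. The lowest members stood at 2.10 u in CNT and 2.14 u in 3CK, and the highest cells outside stood at 1.998 and 1.78 u. Among members the median was 8.17 u in CNT (range 2.10 to 36.8) and 7.08 u in 3CK (range 2.14 to 28.0).

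**Figure D1:**
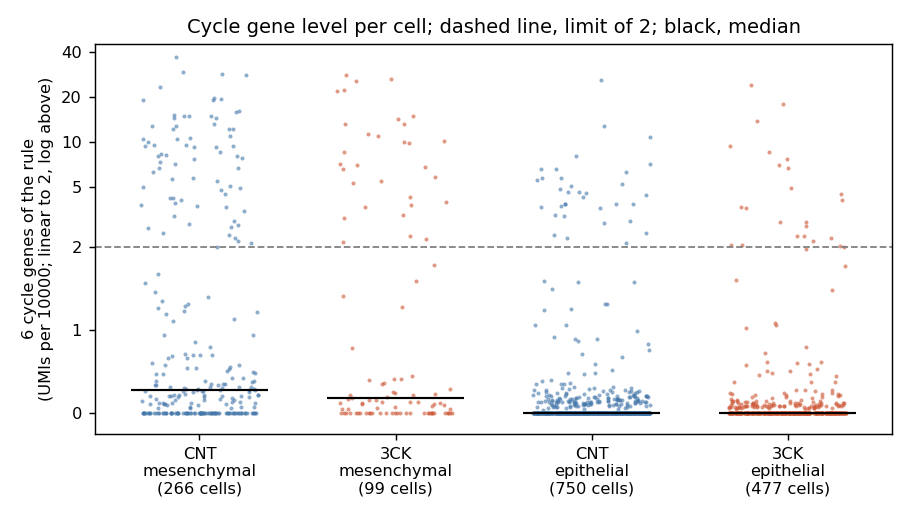
Summed level of the 6 cycle genes of the rule (UMIs per 10000, linear to 2 and log above) in each mesenchymal and epithelial cell of CNT and 3CK, with the limit of 2 dashed and the median as a black line. Few of the 266 CNT and 99 3CK mesenchymal cells lie between 1 and 2, and 34 of 750 and 23 of 477 epithelial cells lie above the limit.

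Genes of the cycle that the rule did not use were higher in the members than in the non-cycling cells of their library, as a choice by cycle genes is bound to give, so these values describe the cells and support nothing. Of all genes with at least 10 CPM in either group, 5.07% in CNT and 6.56% in 3CK were at least 2-fold higher in members, and 3.58% and 4.1% at least 2-fold lower. All of the 41 G2 and mitosis genes outside the rule were at least 2-fold higher in both libraries, with a median log2 ratio of 4.26 in CNT and 4.47 in 3CK, beside 0.03 and 0.04 over all genes. Of the 31 genes of G1/S and S phase, 29 of 31 tested in CNT and 27 of 29 in 3CK were at least 2-fold higher, with medians of 2.42 and 2.18. The replication-dependent histones had medians of 3.65 over 9 tested genes in CNT, all higher in members, and 2.78 over 8 in 3CK. Of these 8, 5 were higher in members and 3 lower, 2 of them at least 2-fold, with HIST1H2AC lowest at -2.16.

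Single genes show how far apart the groups were. PLK1, the Polo-like kinase of mitosis, was at 64.2 CPM in CNT members and 65.0 in 3CK members, against 1.45 and 1.80 in non-cycling cells. CCNA2, the cyclin of S phase and G2, was at 84.2 and 68.4 CPM against 1.91 and 1.80. NUSAP1, a spindle protein, was at 90.1 and 123 CPM against 2.75 and 4.91. By the naming rule these 3 stood among the 10 largest ratios with SPC25, PBK, GTSE1, CEP55, AURKB, HMMR and RRM2, whose log2 ratios lay between 4.47 and 6.30. FOXM1 and MYBL2, transcription factors of the mitotic program, were at 47.4 and 116 CPM in CNT members against 2.59 and 9.61 in non-cycling cells. TYMS, the thymidylate synthase of S phase, was at 443 CPM in CNT members and 354 in 3CK members. It was present in the non-cycling cells as well, at 78.3 CPM in CNT.

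The promoters of the S phase and mitosis lists were compared by sequence, as a description that was not tested. RefSeq windows on GRCh38.p14, from 250 bases before to 50 after the start, were searched on both strands for TTTGAA, known as the cell cycle homology region (CHR), for the box CCAAT and for E2F sites. An E2F site was TTGGCGC, or the form TTCCCGC, or the form TTCGCGC, or the form TTGCCGC, and a reversed CCAAT can overlap the first form. The CHR was in 25 of 35 matched G2 and mitosis promoters (71.4%), in 1 of 25 S phase promoters (4%) and in 15.2% of 35116 promoters. The E2F site was in 11 of 35 (31.4%), in 18 of 25 (72%) and in 13% of all, and CCAAT in 77.1%, 64% and 34.6%. The first 250 bases of 3 such windows are shown, TYMS for the S phase side and CDC20 and PLK1 for mitosis. They were chosen since they hold the E2F site or the CHR, which differ most between the lists. Not shown are the windows of CCNB1, with 0 CHR and 1 E2F site, and of CDK1, with 1 CHR and 2 E2F sites. Capitals mark an E2F site in TYMS and the CHR and CCAAT in the others.
TYMS, chr18:657403-657652, plus strand: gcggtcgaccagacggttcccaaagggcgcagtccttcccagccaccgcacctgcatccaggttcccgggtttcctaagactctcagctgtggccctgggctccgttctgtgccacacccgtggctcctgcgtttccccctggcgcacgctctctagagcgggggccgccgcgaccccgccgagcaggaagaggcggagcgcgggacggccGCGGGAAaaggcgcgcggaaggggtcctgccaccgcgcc
CDC20, chr1:43358731-43358980, plus strand: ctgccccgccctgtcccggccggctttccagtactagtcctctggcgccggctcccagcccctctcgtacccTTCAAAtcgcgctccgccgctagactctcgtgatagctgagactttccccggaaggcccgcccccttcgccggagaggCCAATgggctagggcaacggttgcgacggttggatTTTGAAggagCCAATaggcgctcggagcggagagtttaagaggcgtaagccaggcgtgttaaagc
PLK1, chr16:23678639-23678888, plus strand: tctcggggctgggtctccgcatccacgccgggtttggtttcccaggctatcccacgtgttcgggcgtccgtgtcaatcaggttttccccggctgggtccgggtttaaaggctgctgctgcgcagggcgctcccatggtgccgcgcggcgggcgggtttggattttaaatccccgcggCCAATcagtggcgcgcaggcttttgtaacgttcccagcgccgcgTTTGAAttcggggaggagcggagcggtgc
In TYMS the E2F site begins at -39 from the start, in the reverse direction. In CDC20 a CHR begins at -65 and another at -178, and in PLK1 one begins at -29 and CCAAT at -73. A match is a description of the letters, not a bound site.

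The balance of S phase and mitotic genes varied among members, and many members carried both. After thinning each cell to 10000 UMIs, members held a median of 22 UMIs of the S list in CNT (range 4 to 81) and 20 in 3CK (range 2 to 45), and of the mitosis list 26 (range 4 to 92) and 24 (range 10 to 78). Non-cycling cells held a median of 4 and 4 of the S list and 2 and 2 of the mitosis list. The mitosis list exceeded the S list in 35 of 73 CNT members, 47.9% (36.1 to 60.0%), and in 18 of 31 3CK members, 58.1% (39.1 to 75.5%), a difference of 10.1 points (-10.5 to 29.2). Neither list marks a type of cell, and many members lie near the line of equal counts. The lists hold 31 and 41 genes, so that line is not a border between phases. Outside the rule, 8 of 193 CNT and 3 of 68 3CK non-cycling cells reached the members' median of the S list. The highest of them held 64 UMIs in CNT and 38 in 3CK. Non-cycling thus means below the limit of the 6 rule genes, and some such cells were rich in S transcripts.

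**Figure D2:**
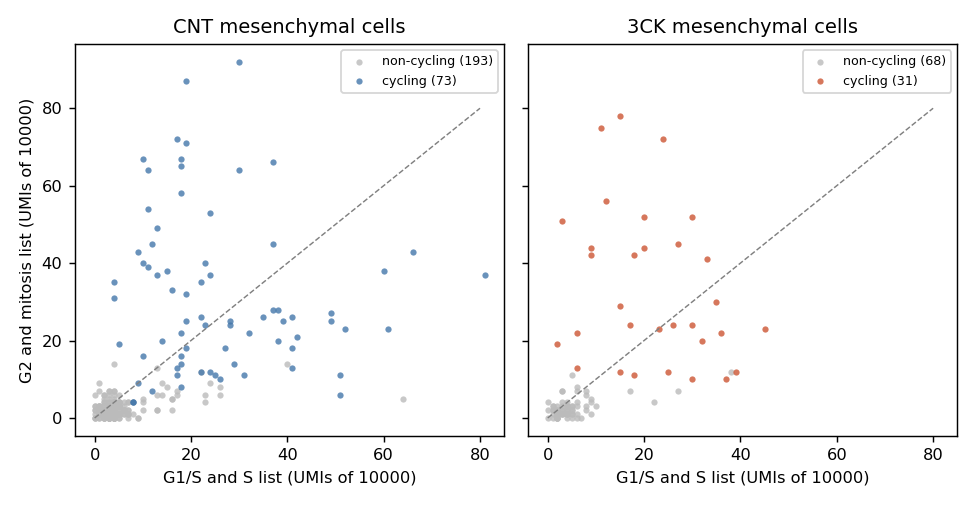
UMIs of the G1/S and S list (x axis) and of the G2 and mitosis list (y axis) in each mesenchymal cell thinned to 10000 UMIs, CNT left and 3CK right, members in colour and non-cycling cells in grey, with the line of equal counts dashed. Members spread along both axes, 35 of 73 above the line in CNT and 18 of 31 in 3CK, and non-cycling cells gather near the origin.

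Inhibitors of the cycle were mixed. CDKN1C, the cyclin-dependent kinase inhibitor p57, was at 26.9 CPM in CNT members against 131 in non-cycling cells, and at 20.5 against 98.8 in 3CK, log2 ratios of -2.29 (-2.58 to -2.02) and -2.27. It was the lowest of the 25 inhibitors and p53 targets in both libraries, a list whose median was -0.30 in CNT and 0.16 in 3CK. CDKN1A, the inhibitor p21, was at 245 against 330 CPM in CNT and 258 against 354 in 3CK. CDKN2D, another inhibitor, was higher in members, at 76.9 against 29.4 and 71.2 against 34.2 CPM.

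The naming rule gave 10 genes with the lowest ratios. SLPI, a protease inhibitor of mucosal surfaces, was at 6.84 CPM in CNT members against 174 in non-cycling cells and at 11.8 against 194 in 3CK, where 1 cell gave 76.7% of the non-cycling UMIs. MMP23B, a metalloprotease, was at 54.3 against 180 CPM and at 29.5 against 113. PTGDS, a prostaglandin D synthase, was at 51.4 against 142 and at 28.5 against 111. CHI3L1 was at 14.6 against 107 and at 95.5 against 264. The others were FBXO2, CDKN1C, SFTA1P, HSD17B1 and the acute-phase genes SAA1 and SAA2, whose near-identical sequences make the counts of each uncertain.

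Matrix genes outside the rule stood close to level, with medians of -0.10 over 24 genes in CNT and -0.23 over 23 in 3CK. LOX, which cross-links collagen, was lower in members, at 273 against 487 CPM and at 145 against 382, and COL6A3 was higher, at 254 against 157 and at 151 against 110. Among fibroblast genes PRRX1, a homeobox factor of mesenchyme, was at 47.9 against 19.8 CPM in CNT and at 161 against 64.8 in 3CK. MFAP5, an elastic fibre protein, was at 24.1 against 60.0 and at 13.2 against 54.5, with 1 cell giving 78.9% of the 3CK members' UMIs. HELLS and DNMT1, which keep DNA methylation through replication, were at 76.0 against 15.6 and at 130 against 45.5 CPM in CNT, and at 71.9 against 9.66 and 130 against 58.3 in 3CK.

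MHC class I transcripts stood below the non-cycling level in the members, all 6 tested in CNT, where 47.3% of all genes did, with a median of -0.70, and HLA-B was at 453 against 792 CPM. All 7 were below it in 3CK as well, where 46.3% of all genes were, with a median of -0.23 and HLA-B at 5206 against 5692. None of these genes differed by 2-fold. HLA genes resemble one another, and how reads were shared among them is not given in the sources used here.

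**Figure D3:**
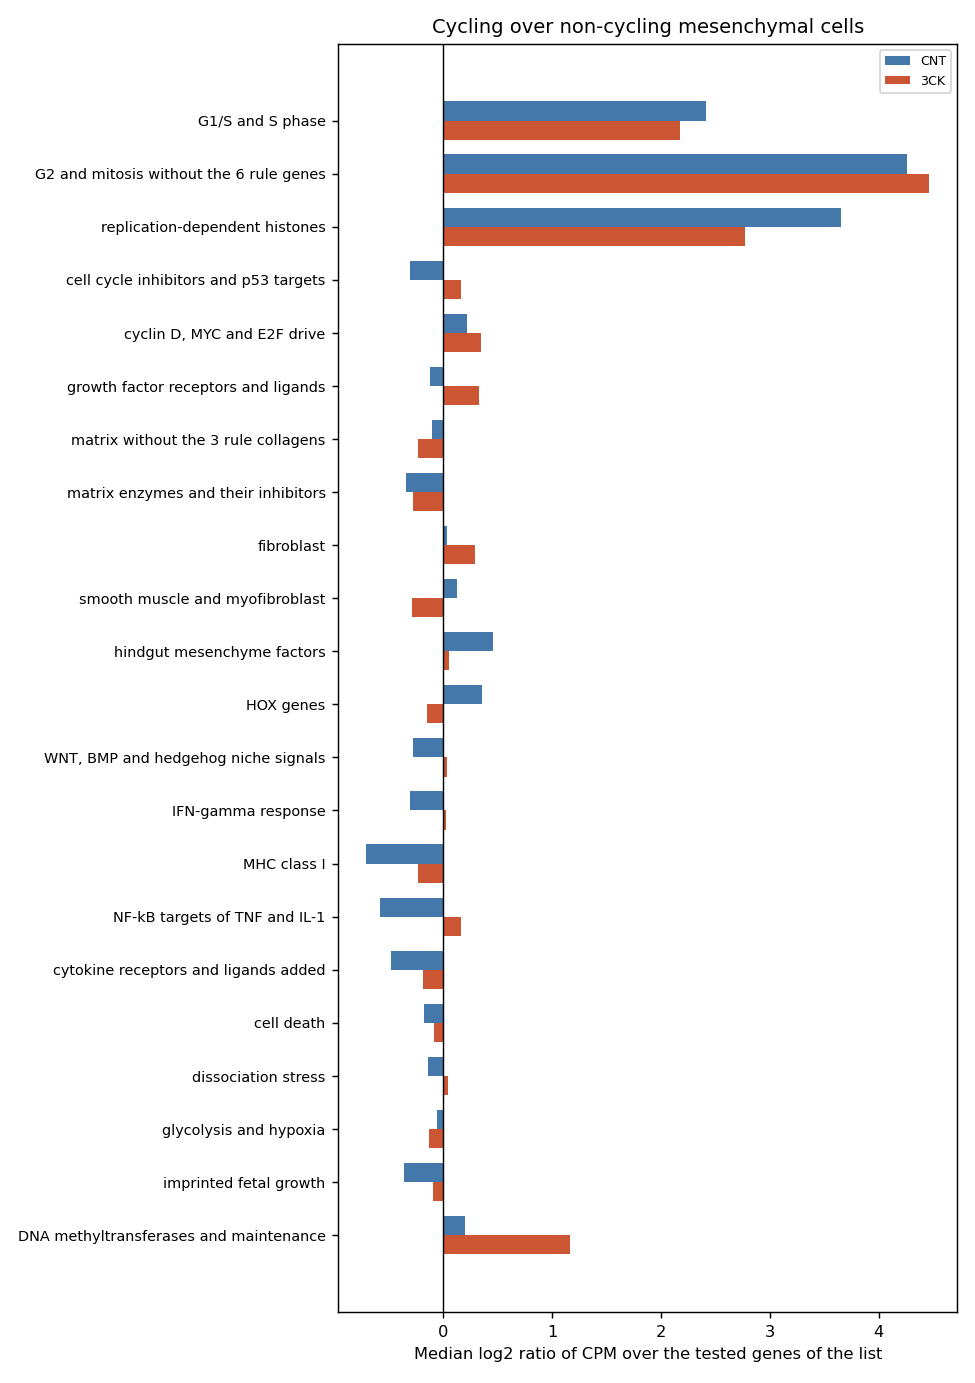
Median log2 ratio of CPM in cycling over non-cycling mesenchymal cells (x axis) for each gene list with at least 5 tested genes, CNT in blue and 3CK in orange. The mitosis list stands at 4.26 and 4.47, the S list at 2.42 and 2.18 and the histones at 3.65 and 2.78, while MHC class I stands at -0.70 and -0.23.

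With the 3 cytokines, the members carried far more RNA of interferon-γ targets, MHC class I and NF-kB targets. Over the 9979 genes tested, 6.21% were at least 2-fold higher in 3CK members and 8.55% at least 2-fold lower, with a median log2 ratio of -0.10. A gene near 0 in 1 library entered through the other and had to differ, so the counts describe the lists. Of 31 interferon-γ response genes, 29 were tested, all were higher and 27 at least 2-fold, with a median of 3.24. In non-cycling cells, where 4.85% of genes were at least 2-fold higher, the same numbers were 29, 29 and 27, with a median of 3.19.

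IRF1, a transcription factor of the interferon response, was at 55.7 CPM in CNT members and 452 in 3CK members. GBP1, a guanylate-binding protein, was at 30.4 and 936, and IDO1, which breaks down tryptophan, at 0.472 and 571, the CNT value being 2 UMIs. SOCS1, the feedback inhibitor of this pathway, had the smallest ratio of the list, at 79.7 and 96.2 CPM in members and at 54.4 and 138 in non-cycling cells. Per member, thinned to 10000 UMIs, the list summed to a median of 7 UMIs in CNT (range 0 to 90) and 93 in 3CK (range 21 to 323). The groups overlap, since 16 of 31 3CK members exceeded the highest CNT member.

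MHC class I genes, which display peptides to T cells, were all at least 2-fold higher, 7 of 7. The share of all genes at least 2-fold higher was 6.21% in members and 4.85% in non-cycling cells. The list median was 2.93 in members and 2.43 in non-cycling cells. B2M, their shared light chain, was at 1688 CPM in CNT and 8753 in 3CK members. HLA-B was at 453 and 5206, and HLA-E at 65.6 and 642. Of the thinned UMIs per cell, this list took a median of 28 in CNT members (range 3 to 88) and 206 in 3CK members (range 52 to 440), and 30 of 31 3CK members exceeded the highest CNT member. Of 9 MHC class II genes, CD74, the chain that guides class II molecules, alone reached 10 CPM, at 8.02 and 107 CPM.

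NF-kB targets of TNF and IL-1 had a median of 4.09 in members. Of 31 tested genes 29 were higher and 26 at least 2-fold, where 41.8% and 6.21% of all genes were. In non-cycling cells the median was 2.77, with 30 of 32 higher, where 41.3% of all genes were. Neutrophil chemokines led in members. CXCL8 was at 2.60 CPM in CNT and 2858 in 3CK members, a log2 ratio of 10.10 (9.27 to 11.11), and at 3.59 and 957 in non-cycling cells. CXCL1 was at 4.48 and 3975 in members and at 52.9 and 1240 in non-cycling cells. CSF3, the growth factor of neutrophils, had 0 UMIs in CNT members and 549 CPM in 3CK, a log2 ratio of at least 9.60 against a floor of 3 UMIs over the group.

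Other NF-kB targets followed with smaller ratios. IL6 was at 23.4 and 682 CPM in members and at 38.9 and 741 in non-cycling cells. CCL2, a monocyte chemokine, was at 35.6 and 1230, and in CNT 1 member gave 56.3% of its UMIs. IL1B was at 6.61 and 659 CPM, with 55.7% of the 3CK UMIs in 1 member, and without the highest cell of each group its log2 ratio went from 6.64 to 6.10. IL-1β was itself among the cytokines added. SOD2, a mitochondrial superoxide dismutase, was at 93.9 and 1521, and NFKBIA, the inhibitor of NF-kB, at 70.3 and 250. PTX3, a pentraxin, was the lowest of the list, at 131 and 46.2 CPM. The list took a median of 4 thinned UMIs per CNT member (range 0 to 34) and 68 per 3CK member (range 7 to 423), and 20 of 31 3CK members exceeded the highest CNT member.

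The chemokines were carried unevenly by the 3CK members. CXCL10, a chemokine of T cells, had 1 UMI in all CNT members together and 10533 in 3CK members, 0.236 and 3658 CPM, with a log2 ratio of 13.92 whose counting interval runs from 11.44 to 19.22. It reached 10 u in 15 of 31 3CK members and in 27 of 68 non-cycling 3CK cells, with medians of 9.84 and 7.07 u. CXCL8 reached 10 u in 11 of 31 members, 35.5% (19.2 to 54.6%), and in 10 of 68 non-cycling cells, 14.7% (7.28 to 25.4%), with medians of 2.62 and 0.195 u. CXCL1 reached it in 12 of 31 and 17 of 68, with medians of 2.67 and 2.41 u. In CNT 0 of 73 members reached 10 u for any of these 3 genes, for which the exact upper bound is 4.93%. CXCL9, the second largest ratio of the members at 0.236 and 436 CPM, took 89.5% of its 3CK UMIs from 1 member, and its log2 ratio went from 10.85 to 6.02 without the highest cell of each group.

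**Figure D4:**
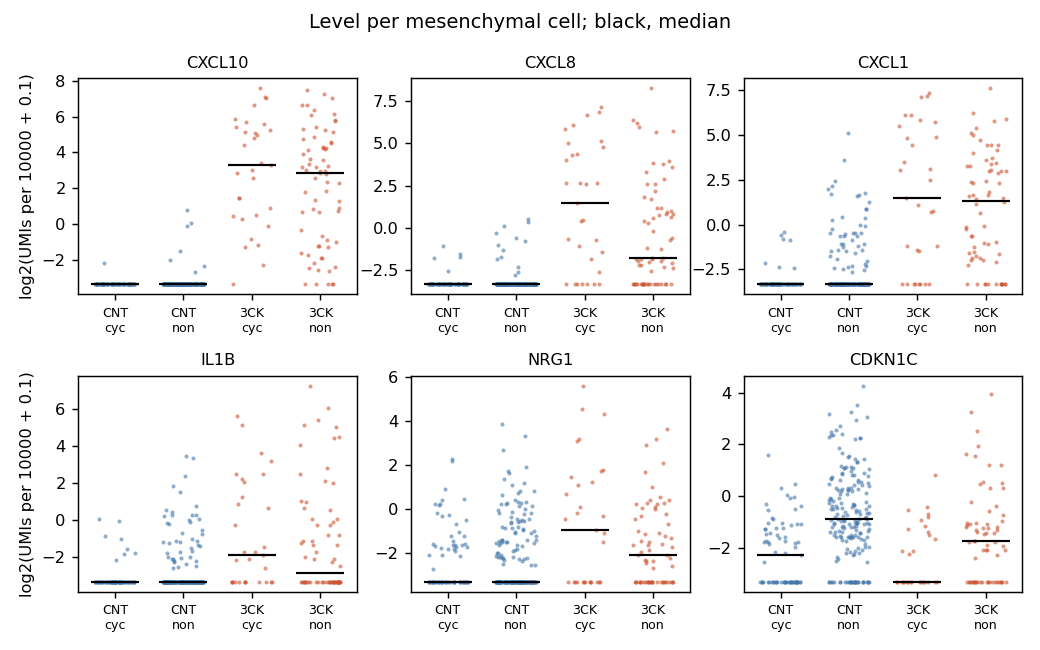
Level of 6 genes in each mesenchymal cell, as log2 of UMIs per 10000 plus 0.1, for cycling (cyc) and non-cycling (non) cells of CNT and 3CK, with the median as a black line. CXCL10 reaches 10 UMIs per 10000 in 15 of 31 cycling and 27 of 68 non-cycling 3CK cells and in none of the 73 cycling and 193 non-cycling CNT cells, and CDKN1C is lower in the cycling cells of both libraries.

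Promoters of the interferon-γ and NF-kB lists were searched in the same way. The interferon-stimulated response core (ISRE) was in 12 of 22 matched interferon-γ list promoters (54.5%) and in 3.57% of all promoters. The gamma-activated sequence (GAS, TTCNNNGAA) was in 22.7% and 7.66%. An NF-kB site (GGAATTTCC), chosen after the values had been seen, was in 10 of 26 NF-kB list promoters (38.5%) and in 0.461% of all. Windows of 250 bases before the start are shown for CXCL10, CXCL9, CXCL8 and CXCL1, the chemokines among the 5 largest ratios of the members, with the ISRE core, GAS and NF-kB site in capitals on either strand.
CXCL10, chr4:76023498-76023747, minus strand: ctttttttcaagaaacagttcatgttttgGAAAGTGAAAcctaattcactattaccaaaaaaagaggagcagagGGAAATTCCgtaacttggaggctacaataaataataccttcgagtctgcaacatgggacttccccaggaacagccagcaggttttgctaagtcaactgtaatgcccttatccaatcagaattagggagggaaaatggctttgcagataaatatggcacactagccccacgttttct
CXCL9, chr4:76007510-76007759, minus strand: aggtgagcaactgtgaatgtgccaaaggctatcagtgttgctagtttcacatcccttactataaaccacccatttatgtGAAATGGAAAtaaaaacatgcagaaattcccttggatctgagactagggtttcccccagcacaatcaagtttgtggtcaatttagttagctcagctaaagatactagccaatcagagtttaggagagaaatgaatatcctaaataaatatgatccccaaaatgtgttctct
CXCL8, chr4:73740319-73740568, plus strand: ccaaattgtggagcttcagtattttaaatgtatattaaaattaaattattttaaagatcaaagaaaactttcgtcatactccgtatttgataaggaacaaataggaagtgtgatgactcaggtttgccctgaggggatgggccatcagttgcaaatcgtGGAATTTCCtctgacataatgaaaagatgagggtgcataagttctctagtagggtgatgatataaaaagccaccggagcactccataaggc
CXCL1, chr4:73869143-73869392, plus strand: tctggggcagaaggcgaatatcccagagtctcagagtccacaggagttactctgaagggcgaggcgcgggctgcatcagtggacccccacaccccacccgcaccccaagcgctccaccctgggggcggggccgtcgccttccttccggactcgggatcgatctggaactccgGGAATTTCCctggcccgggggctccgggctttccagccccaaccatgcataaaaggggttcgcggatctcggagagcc
In CXCL10 the ISRE core begins at -221 and the NF-kB site at -176. In CXCL9 an ISRE core begins at -171 with no NF-kB site of these letters. In CXCL8 the NF-kB site begins at -91, and in CXCL1 at -78. That the letters of the other motifs are missing from a window says nothing of the factors.

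By the naming rule, the 10 largest ratios in members were CXCL10, CXCL9, IDO1, CXCL8, CXCL1, CSF3, CXCL11, CXCL3, KLHDC7B and CCL5. Each had 50 CPM or more in the 3CK members, and CNT members held 19 UMIs or fewer of each. CXCL11 was at 0.472 and 256 CPM, CXCL3 at 0.708 and 191 and CCL5 at 0 UMIs and 133 CPM, a log2 ratio of at least 7.56. CXCL1, CXCL2 and CXCL3 resemble one another in sequence, so the split among them is uncertain.

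The 10 smallest ratios were those of ADAMTS19, APOC2, APOC3, DACH1, KRT7, ADGRL3, LINC01695, PROK1, APOA2 and COLEC10. ADAMTS19, a secreted protease, was at 288 CPM in CNT members and 4.52 in 3CK members, and at 155 and 6.22 in non-cycling cells. DACH1, a transcription factor, was at 54.5 and 1.74, and PROK1, a secreted prokineticin, at 124 and 11.5. The apolipoproteins rest on the 1 CNT member described above, which gave 93.4% of the APOC3 and 90.9% of the APOC2 UMIs. Without the highest cell of each group the log2 ratio of APOC3 went from -5.06 to -1.34 and that of APOC2 from -5.16 to -2.06. KRT7, a keratin, was at 160 and 6.95 CPM, with 52.4% of the CNT UMIs in 1 member.

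Matrix genes were lower in 3CK members. Of 24 tested outside the rule, 21 were lower, where 58.2% of all genes were, with a median of -0.69. Of these 7 were at least 2-fold lower, where 8.55% of all genes were. In non-cycling cells 23 of 25 were lower and 7 at least 2-fold, with a median of -0.66, and 7.59% of all genes were at least 2-fold lower. COL5A1 was at 321 CPM in CNT and 128 in 3CK members, COL4A1 at 615 and 266, LUM at 888 and 339 and SPARC at 1750 and 1263. The collagens of the rule stood in the same direction, with COL1A1 at 2883 and 878 CPM and COL3A1 at 2807 and 1263. TNC, a matrix protein of wounds, was the highest of the list, at 2.12 and 26.4 CPM. FN1, fibronectin, was at 913 and 822. Per member, thinned, the list took a median of 85 UMIs in CNT (range 9 to 225) and 59 in 3CK (range 28 to 152), so the groups overlap.

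Transcription factors of gut mesenchyme were also lower in members, all of 13 tested, where 58.2% of all genes were, with a median of -0.82. Of these 4 were at least 2-fold lower, where 8.55% of all genes were. In non-cycling cells 10 of 14 were lower, where 58.7% of all genes were, with a median of -0.30. HAND2 was at 128 and 43.8 CPM in members, FOXF1, the hedgehog-responsive forkhead factor, at 55.7 and 35.8, and PITX1, a hindlimb and hindgut homeobox factor, at 315 and 300. Of the fibroblast genes PRRX1 was higher with the cytokines, at 47.9 and 161 CPM. PDGFRA, the receptor for platelet-derived growth factor, was at 74.3 and 41.7, and HGF, a growth factor that stroma sends to epithelium, at 331 and 73.6. FGF2 was at 40.3 and 144 CPM. NRG1, a ligand of ERBB receptors, was at 34.9 and 427 in members and at 44.2 and 80.7 in non-cycling cells, with 39.0% of the UMIs of 3CK members in 1 cell. H19, an imprinted fetal RNA, was at 3339 and 1095.

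The cycle genes themselves differed little between the libraries. The S list had a median of -0.13, with 12 of 31 genes higher, and the mitosis list of 0.23, with 30 of 41 higher, beside -0.10 and 41.8% higher over all genes, and none of these 72 genes but UNG was 2-fold apart. CDK1 was at 169 CPM in CNT and 184 in 3CK members, CCNB1 at 139 and 148, PCNA at 198 and 162, and AURKA, with the highest ratio of the mitosis list, at 52.1 and 103. Captured histone transcripts stood apart from both lists, with a median of -1.27. All 9 found were lower in 3CK members and 7 at least 2-fold, where 58.2% and 8.55% of all genes were. HIST1H4C was at 984 and 632 CPM, HIST1H1C at 146 and 57.3 and HIST1H1A at 34.7 and 9.03. Histone mRNA is made in S phase, and how fully 3' libraries capture it was not tested. At least 10 thinned histone UMIs were held by 33 of 73 CNT and 11 of 31 3CK members, and the part of this share in the lower histone sums was not tested. SLBP, which binds histone mRNA, was at 150 and 99.0 CPM. The list of inhibitors and p53 targets had a median of 0.13 in members, with 13 of 22 tested genes higher. CDKN1A was at 245 and 258 CPM. In non-cycling cells the list median was -0.35, with 18 of 23 lower, where 58.7% of all genes were.

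Of 18 cell death genes tested, 14 were higher in 3CK members and 9 of them at least 2-fold, with a median of 1.01. Of all genes, 41.8% were higher and 6.21% at least 2-fold. In non-cycling cells 16 of 18 were higher and 8 at least 2-fold, with a median of 0.93. There 41.3% of all genes were higher and 4.85% at least 2-fold. TNFSF10, the death ligand TRAIL, was at 1.42 CPM in CNT and 145 in 3CK members. FAS was at 20.3 and 34.7 and CASP8 at 21.9 and 31.6. Glycolysis and hypoxia genes had a median of 0.46 in members and 0.69 in non-cycling cells.

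**Figure D5:**
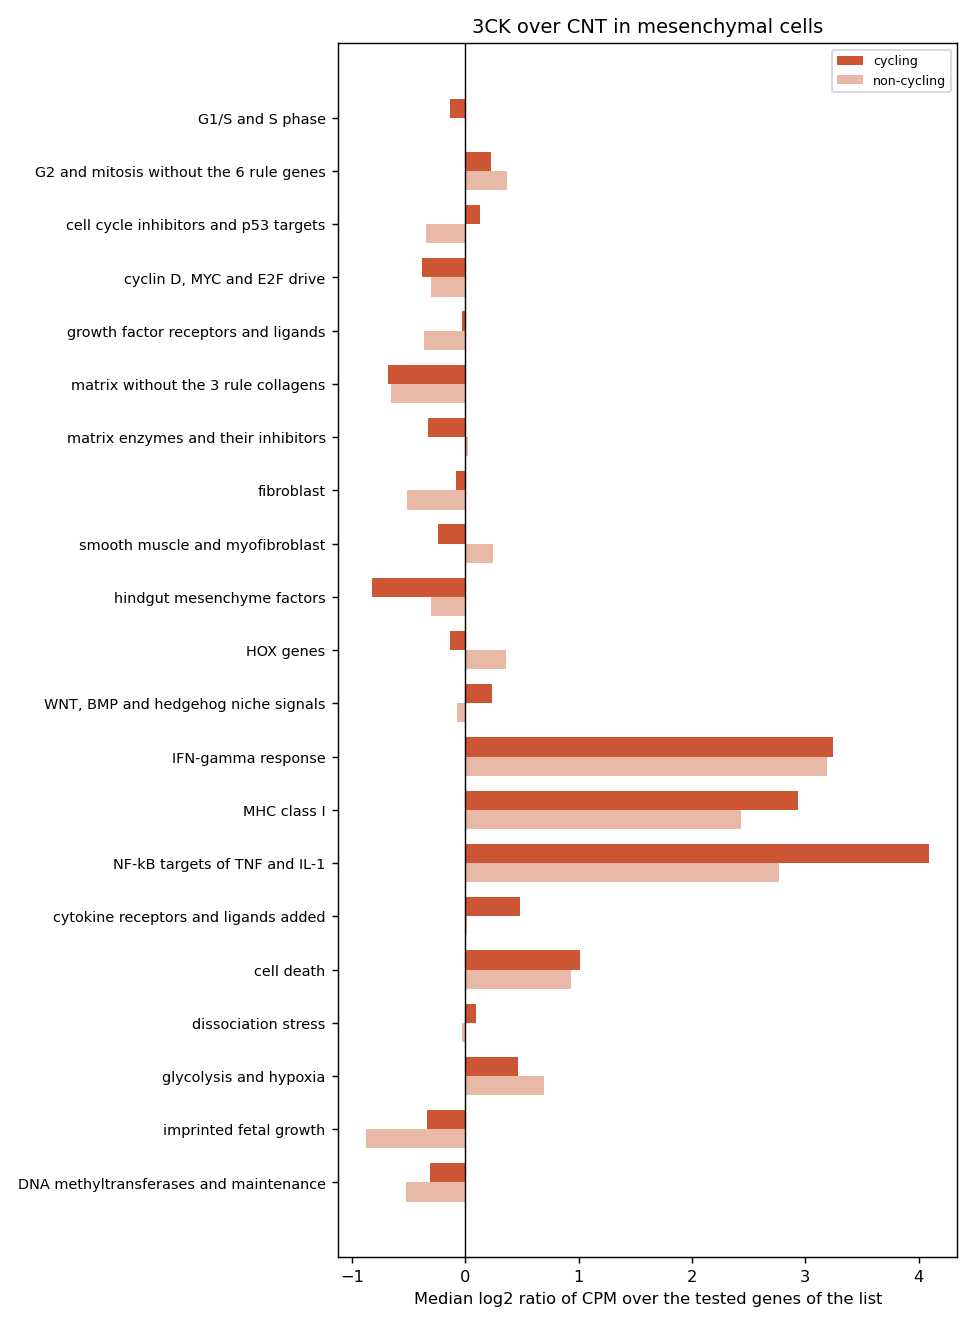
Median log2 ratio of CPM in 3CK over CNT (x axis) for each gene list with at least 5 tested genes, in cycling (dark) and non-cycling (light) mesenchymal cells. The interferon-γ list stands at 3.24 and 3.19, MHC class I at 2.93 and 2.43, NF-kB targets at 4.09 and 2.77, the matrix list at -0.69 and -0.66 and the hindgut factors at -0.82 and -0.30.

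The response of members minus that of non-cycling cells was then taken gene by gene. Both come from the same 2 libraries. Only genes with at least 10 UMIs in each of the 4 groups entered, which left out CXCL10, IDO1 and CSF3. Of the 10191 genes taken, 3.34% had a difference of at least 1 on the log2 scale. For 2.37% it was -1 or below, and the median was 0.01. Of the 33 NF-kB genes 25 entered, with a median difference of 0.65. Of these, 20 were higher in members and 7 of them past 2-fold. The other 5 were lower and 2 of them past 2-fold, with IL1A lowest at -2.27. CCL4 had a log2 ratio of -6.16 for cycling over non-cycling cells in 3CK. The median difference of the MHC class I list was 0.50, with 7 of 7 higher. That of the interferon-γ list was 0.31, with 17 of 23 higher, where 51.1% of all genes were higher. The histones had -1.42, with 0 of 6 higher. These differences were not tested.

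CXCL1 had the largest difference by the naming rule, 5.24 (4.58 to 5.90), made of log2 ratios of 9.79 in members and 4.55 in non-cycling cells. Its CNT level was 4.48 CPM in members against 52.9 in non-cycling cells, and its 3CK level was 3975 against 1240. It reached 10 u in 0 of 73 members and 2 of 193 non-cycling cells in CNT, and in 12 of 31 and 17 of 68 in 3CK. The 3CK medians per cell given above stood closer together than these summed levels. IL1B differed by 2.09 (1.53 to 2.65), CXCL2 by 2.20 (1.84 to 2.57), CCL2 by 2.27 (2.02 to 2.52) and NRG1 by 2.74 (2.44 to 3.04). SPINK6, PI3, G0S2 and CCL7 completed the 5 largest, and 1 member gave 97.1%, 73.6%, 51.4% and 80.1% of their UMIs in 3CK. The 5 smallest were APOC3, GNRH2, RSAD2, KRT7 and KIF26B. RSAD2, an antiviral protein, was at 8.73 and 51.7 CPM in members and at 0.992 and 42.1 in non-cycling cells, with 81.1% of the UMIs of CNT members in 1 cell. KIF26B was at 86.8 and 10.1 CPM in members and at 109 and 56.0 in non-cycling cells. ID2, an inhibitor of differentiation factors, was at 104 and 40.3 in members and at 141 and 136 in non-cycling cells.

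The 3CK members also differed from the 23 cycling epithelial cells of their library, a comparison chosen after the values were seen. CXCL10 was at 3658 CPM in mesenchymal and 326 in epithelial cycling cells, CXCL8 at 2858 and 140, and CXCL1 at 3975 and 209. IL6 was at 682 and 2.93, CCL2 at 1230 and 8.80 and IL1B at 659 and 25.6. IDO1, at 571 and 454, and HLA-B, at 5206 and 4294, stood closer together. Over all epithelial cells of 3CK, CXCL10 was at 1599 CPM and IL6 at 4.57.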

How the data were processed

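Single-cell 3' libraries of 1 CNT and 1 3CK organoid culture were analysed. The deposited matrices hold raw UMI counts of each gene in each barcode. Cell Ranger 7.1.0 and GRCh38 are named in the submitters' processing notes, and the sources used here do not give the annotation or the use of intronic reads. The members and all gene lists were chosen with earlier results of these data known.

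Barcodes were selected by the rule in the report. Counts were summed over the cells of a group and scaled to CPM, and log2 ratios were taken of genes with at least 10 CPM in either group. A group at 0 was set to 3 UMIs, which makes the ratio a bound. Sums carry exact Poisson intervals, ratios intervals from the exact binomial, shares Clopper-Pearson intervals and differences of shares Newcombe intervals. Differences of ratios, with their shares and list medians, were taken only of genes with at least 10 UMIs in each of the 4 groups. Cells were thinned to 10000 UMIs for phase and list sums. Doublets were scored with Scrublet in scanpy 1.11.5 and kept, with removal as an alternative. TMM factors came from edgeR 4.0.16. The ratios and intervals were run on simulated Poisson counts. These hold no spread between cells or cultures, so they check the counting error only.

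Genes were named by size: the 10 largest and 10 smallest ratios with at least 50 CPM in the higher group (for cycling against non-cycling cells in each library, by the less extreme one), the 5 largest and 5 smallest differences of response, and in each list the highest, largest and smallest. Others, such as ID2, NRG1, IL6 and CCL2, were chosen from the lists after their values were seen. Some genes of the lists are not reported here. Of 23 histone symbols 9 were found, and of 23 growth factor symbols 22. Alternatives were depth, cycle, collagen, EPCAM, MALAT1 and mitochondrial limits, doublets, scaling, equal weight of cells and the CPM minimum. Leaving out each gene's highest cell or the apolipoprotein-rich CNT member was added after seeing the data.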

Additional observations from a re-analysis of the deposited data

Results flagged for a closer look

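For 5 genes the direction turned between the groups compared, by at least 2-fold on both sides, with counting intervals that leave out 0. None of these differences was tested, since each group is 1 library.

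CXCL1 had a log2 ratio of cycling over non-cycling cells of -3.56 in CNT and 1.68 in 3CK, from 19 UMIs in CNT members and 11446 in 3CK members. CXCL3 had -3.26 and 1.01, from 3 UMIs in CNT members. G0S2 had -1.06 and 2.41, and 51.4% of its UMIs in 3CK members came from 1 cell. SPINK6 had -2.24 and 2.09, with 97.1% from 1 cell.

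CNN1, calponin of smooth muscle, had -1.75 in CNT and 2.62 in 3CK for cycling over non-cycling cells, and the log2 ratio of 3CK over CNT was 3.09 in cycling and -1.28 in non-cycling cells. It rests on 5 and 29 UMIs in the members of CNT and 3CK, and 89.7% of the latter came from 1 cell.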

How the results depend on the processing

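Each group is 1 library, so the spread between cultures is unknown, and 31 members in 3CK limit every share. Of 104 recomputed shares and gene counts, 89 stayed within their interval or within 1.5 times, and 15 moved. The difference in cycling share ran from 1.80 to 6.44 points, each interval holding 0. A cycle limit of 4 brought the CNT share to 21.4%, the genes at least 2-fold higher in the difference of response from 340 to 527, and 58.4% higher among those past 2-fold to 69.0%. Equal weight of cells gave 617 and 73.6%. TMM factors moved the median of all genes in 3CK against CNT from -0.10 to 0.0023, and the direction of the interferon, MHC class I, NF-kB, matrix, hindgut and histone medians of 3CK against CNT in members held under all 11 alternatives run.

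The gene counts followed the CPM minimum, which sets how many genes are tested. With at least 1 CPM, the genes 2-fold higher and lower were 1416 and 2611 for 3CK against CNT in members, 1207 and 1695 for cycling against non-cycling cells in CNT, and 1373 and 1853 in 3CK. With at least 50 CPM they were 280 and 206, 182 and 79, and 212 and 77. With at least 10 CPM they had been 620 and 853, 510 and 360, and 635 and 397.

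Of the recomputed named gene ratios, counted once for each alternative, 9 values reversed, each resting on 1 cell or few cells. At a cycle limit of 4, SFRP2 in CNT went from 2.03 to -5.11 and SST in 3CK from 1.05 to -5.80 for cycling against non-cycling cells. In CNT the same ratio became -0.11 for APOA2, -0.39 for APOC3 and -0.23 for SERPINA1 without each gene's highest cell, and -0.080, -0.40 and -0.24 without the apolipoprotein-rich member. Without that member the difference of response of APOC3 became 0.072, from -3.77. Counted in the same way, another 781 gene values and 57 list medians moved, and 6264 and 732 did not. No paired analysis was possible because each group holds 1 library and the labels give no replicate numbers.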
